A study of Homo sapiens with 6 samples.

Results

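The RB family, the MuvB core of the DREAM complex, the MYB paralogs and FOXM1 were followed as 10 transcripts after BAP18 knockdown: RB1, RBL1, RBL2, LIN9, LIN37, LIN52, LIN54, MYBL1, MYBL2 and FOXM1. They were found by symbol in the deposited counts, where all 10 are among the 35474 genes listed and all 10 passed the filter on low counts that left 20776 genes for testing. A549 cells, an epithelial line from a human lung adenocarcinoma, were transfected with an siRNA against BAP18 (siBAP18) or with an untargeted siRNA (siCtrl), and RNA was taken 48 h later from 3 biological replicates of each group. All cells thus went through siRNA transfection, the labels give no difference beside the siRNA, and the paper's text does not say which of its 3 BAP18 siRNAs was used. Expression is given as counts, as CPM (counts per library total after TMM scaling) for comparing groups, or as RPKM (counts relative to exon length and library total) for comparing genes.

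RB1 and its relatives p107 (RBL1) and p130 (RBL2) are pocket proteins that bind E2F factors and hold cell cycle genes silent in quiescence and early G1, until cyclin-dependent kinases phosphorylate them. DREAM joins RBL2 or RBL1 and a repressive E2F with MuvB, a core made of LIN9, LIN37, LIN52, LIN54 and RBBP4, in which LIN54 is the subunit that touches DNA at CHR elements. When cells enter the cycle, the same core exchanges the pocket protein for B-MYB (MYBL2) and later recruits FOXM1, and the complex then switches from repressing to activating G2/M genes. A549 cells retain RB1 and are known for a deletion of CDKN2A, which encodes the kinase inhibitor p16.

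The knockdown and the identity of the cells were checked first. BAP18 is listed as C17orf49, whose counts were 743, 751 and 705 in siCtrl and 120, 137 and 108 in siBAP18, a log2 fold change of −2.65. Library totals ran from 46035635 to 53657450 counts in siCtrl and from 42094524 to 56548620 in siBAP18. All 11 epithelial and A549 markers were expressed, with a summed level of 10300 to 10500 RPKM in siCtrl and 7250 to 7570 in siBAP18, and CDKN2A had at most 7 counts in any library. Of 8 markers of leukocytes, endothelium and fibroblasts, 5 are listed, and their summed level was 0.931 to 1.43 RPKM over the 6 libraries, most of it COL1A1. Mitochondrial genes took 6.86 to 7.43% of siCtrl counts and 5.27 to 6.14% of siBAP18 counts. The part of the marker and mitochondrial differences in the values below was not tested.

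The promoters of the members carry different combinations of the short words that E2F and MuvB read, and 5 are shown because they span the range from the transcript that changed most to the only one that rose. Sequences are from RefSeq (GRCh38.p14), whose table matched 8 of the 10 members, and run 5′ to 3′ from 120 bases before the start site nearest to the listed 5′ end to 30 bases after it. Capitals mark an E2F word (8 words: TT, then CC, CG, GC or GG, then CG, then C or G) or a CHR word (TTTGAA or TTCGAA), searched on both strands in the 250 bases before and 50 after the start. No E2F word shares letters with a CHR word in these promoters.
RBL1, chr20:37095968-37096117, - strand: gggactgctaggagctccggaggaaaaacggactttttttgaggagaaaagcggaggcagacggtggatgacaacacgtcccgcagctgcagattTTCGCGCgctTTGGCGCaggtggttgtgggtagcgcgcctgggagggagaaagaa
MYBL2, chr20:43666994-43667143, + strand: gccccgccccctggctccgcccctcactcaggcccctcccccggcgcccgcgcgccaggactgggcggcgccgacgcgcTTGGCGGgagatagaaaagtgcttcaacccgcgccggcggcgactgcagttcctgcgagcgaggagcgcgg
LIN54, chr4:83010805-83010954, - strand: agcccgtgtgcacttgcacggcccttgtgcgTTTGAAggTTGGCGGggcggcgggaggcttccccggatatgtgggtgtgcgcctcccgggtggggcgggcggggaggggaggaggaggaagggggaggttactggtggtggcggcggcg
LIN52, chr14:74084836-74084985, + strand: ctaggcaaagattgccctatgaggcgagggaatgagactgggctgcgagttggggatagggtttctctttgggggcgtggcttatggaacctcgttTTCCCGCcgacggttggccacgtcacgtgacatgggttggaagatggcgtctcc
LIN37, chr19:35748456-35748605, + strand: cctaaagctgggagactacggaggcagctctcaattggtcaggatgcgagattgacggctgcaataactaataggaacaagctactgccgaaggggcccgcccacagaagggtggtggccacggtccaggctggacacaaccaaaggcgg
RBL1 holds a pair of E2F words, 25 and 15 bases before its start, and MYBL2 holds 1, 41 bases before its start. In LIN54 a CHR word begins 89 bases and an E2F word 81 bases before the start, and this start lies 2092 bases from the listed 5′ end. LIN52 has 1 E2F word 24 bases before its start. No E2F or CHR word was found near the LIN37 start or near the LIN9 start closest to its listed 5′ end, and RBL2 has a CHR word 25 bases after its start. Start sites farther from the listed 5′ end carry a CHR word 182 bases upstream in LIN37, and in LIN9 an E2F word at 1 such site and CHR words at another. Of the 35116 promoters searched, 23.7% hold an E2F word and 16.4% a CHR word. Counted by gene, over every start site of the 11493 tested genes found in the table, the share with an E2F word is 41.3%, so a match describes these letters and is not evidence of binding. FOXM1 and MYBL1 were not matched to an entry, which does not show that RefSeq lacks them. The RB1 entry lies 172699 bases from the listed 5′ end and was not used.

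The genes did not move alike. Expression of 7 members was lower and that of 1 was higher in siBAP18 cells at an adjusted p under 0.05 in the quasi-likelihood test of edgeR, adjusted after Benjamini and Hochberg, and LIN52 and MYBL1 did not pass. Across all genes tested, 25.1% were called lower and 24.5% higher at that threshold. The median log2 fold change was −0.46 over the 10 members and 0.00102 over all genes. Only RBL1 also passed an absolute log2 fold change over 1, which 3.74% of all genes did on the lower side. All 3 siBAP18 libraries lay below all 3 siCtrl libraries for 8 members, against 29.0% of all genes, and above them for LIN37, against 27.6% of all genes. RNA came from whole cultures, so a smaller share of cells in a cycle phase and less of a transcript per cell cannot be told apart.

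**Figure D1:**
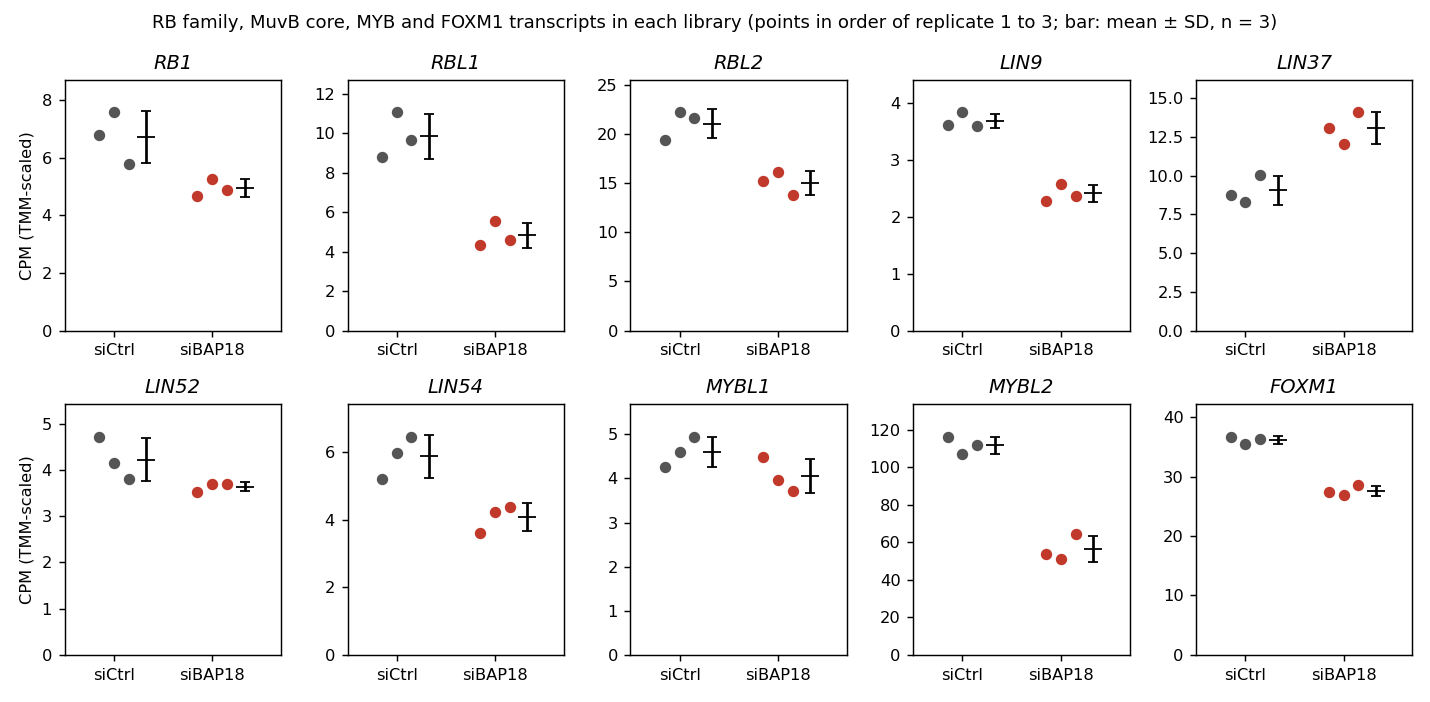
Expression of the 10 transcripts in CPM on a linear axis from 0, with 1 point per library and the mean ± SD (n = 3) beside each group. The groups overlap for MYBL1 alone, and LIN37 is the transcript whose siBAP18 points all lie above siCtrl.

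**Figure D2:**
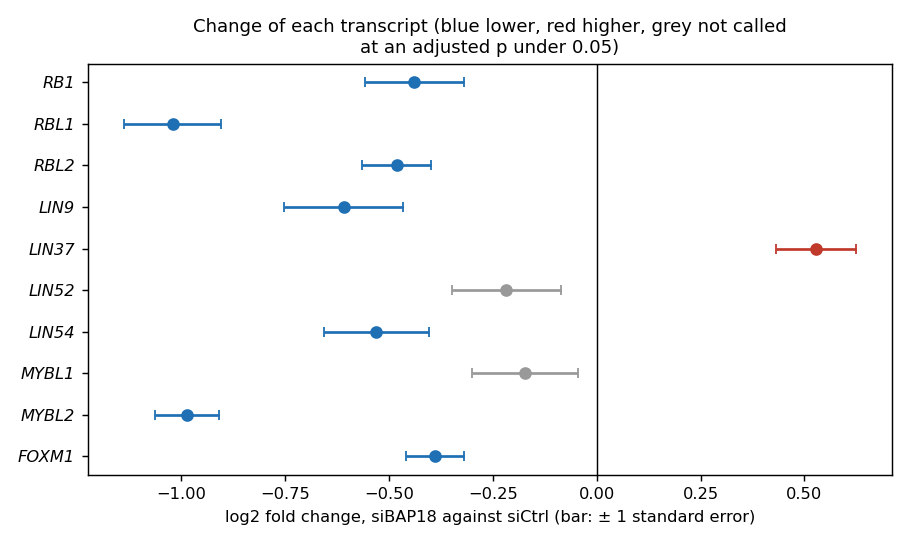
Log2 fold change of siBAP18 against siCtrl for each transcript, with bars of 1 standard error, from edgeR's quasi-likelihood fit. RBL1 (−1.02) and MYBL2 (−0.99) lie farthest below 0, LIN37 (0.53) lies above it, and the grey points LIN52 and MYBL1 were not called.

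The 3 pocket protein transcripts were all lower after BAP18 knockdown, and RBL1 fell most. RBL1 (chromosome 20, 36996349 to 37095995, − strand of GRCh38) encodes p107, the pocket protein that is itself made under E2F control in cycling cells. Its counts were 468, 514 and 452 in siCtrl and 236, 324 and 186 in siBAP18. Expression was 9.84 ± 1.14 CPM (SD, n = 3) in siCtrl and 4.82 ± 0.639 CPM (SD, n = 3) in siBAP18, with no overlap between the groups. The log2 fold change was −1.02 (adjusted p = 5.80e-08, standard error 0.117), or 0.493 of the control level. It fell short of the fold change limit of 1 without siCtrl replicate 2 (−0.935), without siBAP18 replicate 1 (−0.945) or without siBAP18 replicate 3 (−0.986). Under limma on log2(RPKM + 1), which shrinks changes of transcripts near 1 RPKM, it was −0.55. An antisense gene, RP4-621N11.2, shares 211 exon bases with RBL1, and its log2 fold change was −1.07.

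RBL2 (chromosome 16, 53433977 to 53491649, + strand) encodes p130, the pocket protein that predominates in DREAM of resting cells. Its counts were 1029, 1031 and 1009 in siCtrl and 827, 940 and 557 in siBAP18. Scaled to library size, these were 19.3, 22.2 and 21.6 CPM against 15.2, 16.1 and 13.7 CPM, so every knockdown library lay below every control. On the log2 scale RBL2 fell by 0.48 (adjusted p = 2.85e-05, standard error 0.0835). A pair of genes on the opposite strand share exon bases with it, AKTIP (610 bases, log2 fold change −0.13, adjusted p = 0.241) and RP11-44F14.7 (721 bases, −0.32, adjusted p = 0.0783), and neither was called.

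RB1 (chromosome 13, 48303751 to 48481986, + strand), the retinoblastoma tumour suppressor, had 360, 352 and 270 counts in siCtrl and 255, 308 and 197 in siBAP18. In CPM the controls held 6.77, 7.57 and 5.78 and the knockdowns 4.69, 5.27 and 4.86, with siCtrl replicate 3 the nearest to the knockdown group. RB1 fell by 0.44 (adjusted p = 0.00342, standard error 0.120), and limma on log2(RPKM + 1) without a filter lost this call (adjusted p = 0.0993).

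Because RBL1 and RBL2 compete for a place in DREAM, their ratio was taken within each library, where scaling cancels. On RPKM, the log2 ratio of RBL1 to RBL2 was −0.839, −0.706 and −0.861 in siCtrl and −1.51, −1.24 and −1.28 in siBAP18. The mean ratio thus went from 0.574 to 0.394, a difference of −0.54 on the log2 scale. The groups did not overlap, and the p was 0.1 in an exact two-sided permutation test, the smallest that 3 libraries against 3 allow. As shares of the RPKM summed over the 3 pocket proteins, RBL1 made up 29.4 ± 1.0% (SD, n = 3) in siCtrl and 22.1 ± 1.5% in siBAP18, RBL2 went from 51.2 ± 2.1% to 56.0 ± 2.0%, and RB1 from 19.4 ± 2.1% to 21.9 ± 0.9%. The summed level itself was 5.60 ± 0.51 RPKM in siCtrl and 3.67 ± 0.41 RPKM in siBAP18.

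The 4 MuvB subunits among the members split: LIN9 and LIN54 fell, LIN37 rose and LIN52 was not called. RBBP4, the remaining subunit, is given with the binding partners. LIN9 (chromosome 1, 226231149 to 226309869, − strand), a scaffold subunit that contacts B-MYB together with LIN52, had 192, 178 and 168 counts in siCtrl and 124, 150 and 96 in siBAP18. Expression was 3.68 ± 0.130 CPM (SD, n = 3) in siCtrl and 2.41 ± 0.148 CPM in siBAP18. LIN9 fell by 0.61 (adjusted p = 0.000915, standard error 0.143), with a gap between the groups wider than the spread within either.

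LIN54 (chromosome 4, 82909973 to 83012926, − strand), the DNA-binding subunit, had 277, 278 and 302 counts in siCtrl and 196, 247 and 178 in siBAP18. The highest knockdown library, replicate 3 at 4.39 CPM, stayed below the lowest control, replicate 1 at 5.21 CPM. LIN54 fell by 0.53 (adjusted p = 0.000994, standard error 0.126), and the adjusted p was 0.0517 under limma on log2(RPKM + 1) without a filter.

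LIN52 (chromosome 14, 74084796 to 74201235, + strand) is the subunit that DYRK1A phosphorylates to let a pocket protein dock. Its expression was 4.72, 4.15 and 3.81 CPM in siCtrl and 3.53, 3.70 and 3.70 CPM in siBAP18. The groups did not overlap, yet siCtrl replicate 3 stood close to the knockdown libraries, and the log2 fold change of −0.22 (adjusted p = 0.179, standard error 0.132) did not pass the test.

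LIN37 (chromosome 19, 35748361 to 35754519, + strand), a subunit needed for repression by DREAM, was the exception. Its counts were 465, 387 and 471 in siCtrl and 712, 702 and 571 in siBAP18. In CPM these were 8.74, 8.32 and 10.1 against 13.1, 12.0 and 14.1, and all 3 knockdown libraries lay above all 3 controls. LIN37 rose by 0.53 (adjusted p = 5.71e-05, standard error 0.0965). This value is uncertain, because 2 other listed genes share its exons. AC002398.9, on the same strand, shares 752 bases (26.7% of the LIN37 exons), was counted at a mean of 1549 in siCtrl and 1930 in siBAP18, and rose by 0.26 (adjusted p = 0.00540). AC002398.11, on the opposite strand, shares 1180 bases (41.8%) and rose by 0.54 (adjusted p = 0.000253). Whether counting used strand is not given in the sources used here, so reads of these 3 genes cannot be told apart. Of the other members, RBL1, RBL2 and FOXM1 also share exon bases with a listed gene, which makes 4 of 10.

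With its rise, LIN37 took 52.9 ± 2.8% (SD, n = 3) of the RPKM summed over these 4 subunits, without RBBP4, in siCtrl and 68.5 ± 2.2% in siBAP18. LIN9 went from 13.7 ± 1.1% to 8.03 ± 0.80%, LIN54 from 14.4 ± 1.3% to 8.90 ± 0.83%, and LIN52 from 19.0 ± 2.6% to 14.6 ± 0.79%. The sum was 6.04 ± 0.25 RPKM in siCtrl and 6.76 ± 0.13 RPKM in siBAP18. Shares add to the whole, so the larger share of LIN37, with its shared exons, lowers the others.

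**Figure D3:**
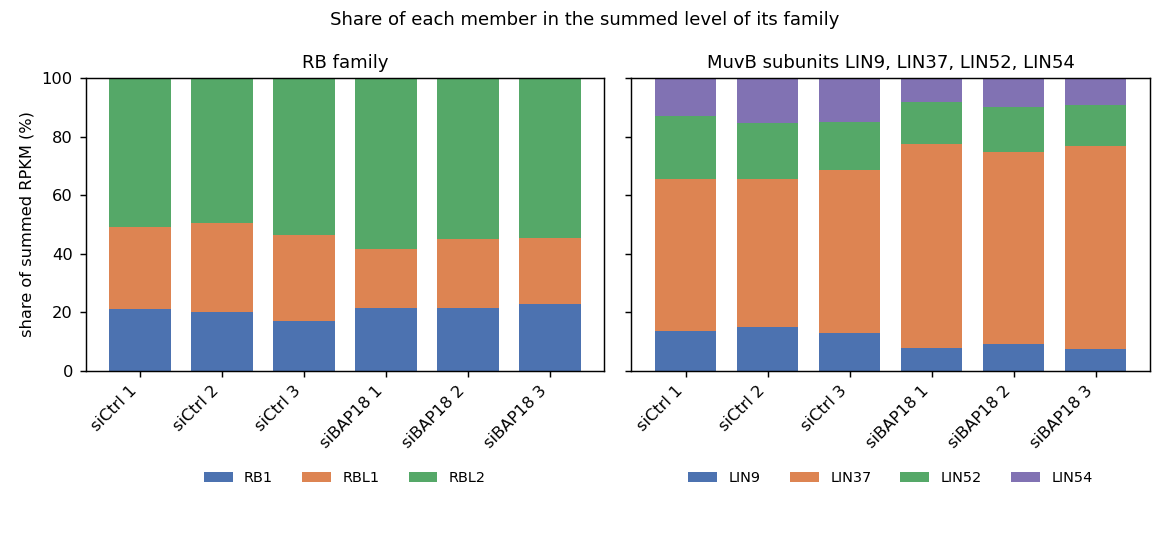
Share of each gene in the RPKM summed over its family, in percent, with 1 stacked bar per library. RBL1 shrinks from 28.3 to 30.4% of the RB family in siCtrl to 20.4 to 23.4% in siBAP18. LIN37, whose exons overlap other genes, grows from 50.7 to 56.1% of the sum of LIN9, LIN37, LIN52 and LIN54 to 65.9 to 69.9%. RBBP4, the remaining MuvB subunit, is left out of that sum.

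MYBL2 was the most abundant of the 10 transcripts and fell to near the same degree as RBL1. MYBL2 (chromosome 20, 43667019 to 43716496, + strand) encodes B-MYB, the activating partner of MuvB in S phase and G2. Its counts were 6184, 4988 and 5230 in siCtrl and 2926, 3001 and 2609 in siBAP18. Expression was 111.8 ± 4.51 CPM (SD, n = 3) in siCtrl and 56.5 ± 6.91 CPM (SD, n = 3) in siBAP18, where replicate 3 was the highest at 64.4 CPM. The log2 fold change was −0.99 (adjusted p = 6.68e-11, standard error 0.0769), or 0.505 of the control level, and it lay between −1.09 and −0.92 with each library left out in turn.

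MYBL1 (chromosome 8, 66562175 to 66614247, − strand), which encodes A-MYB, the paralog best known from testis, was low in both groups. It measured 4.25, 4.60 and 4.94 CPM in siCtrl and 4.48, 3.97 and 3.72 CPM in siBAP18, and it was the 1 member whose groups overlapped, through siBAP18 replicate 1. Its log2 fold change was −0.17 (adjusted p = 0.275, standard error 0.128).

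Within a library, MYBL2 exceeded MYBL1 by 6.16, 5.93 and 5.88 on the log2 scale of RPKM in siCtrl and by 4.97, 5.08 and 5.49 in siBAP18. That is a mean ratio of 63.5 in siCtrl and 36.2 in siBAP18, and MYBL2 still made up 97.3 ± 0.48% of the summed MYB paralogs after knockdown, against 98.4 ± 0.15% before. Against the mean log2 RPKM of LIN9, LIN37, LIN52 and LIN54, MYBL2 was 31.7 times as high in siCtrl and 18.4 times as high in siBAP18, a difference of −0.79 on the log2 scale. That mean leaves out RBBP4 and includes LIN37, whose exons overlap other listed genes. The uncertain rise of LIN37 (0.53) widens the difference, and the ratio without LIN37 was not taken. Neither ratio overlapped between groups, and each gave p = 0.1 in the exact two-sided permutation test, the smallest possible here.

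FOXM1 (chromosome 12, 2857681 to 2877155, − strand), a forkhead activator of mitotic genes that joins the MYBL2 and MuvB complex in G2, had 1952, 1648 and 1701 counts in siCtrl and 1494, 1573 and 1158 in siBAP18. The CPM values were tight, with 36.7, 35.4 and 36.4 in siCtrl and 27.5, 26.9 and 28.6 in siBAP18. FOXM1 fell by 0.39 (adjusted p = 4.35e-05, standard error 0.0696), to 0.764 of control, and the gap between the groups was far wider than the spread within them. ITFG2 shares 781 exon bases with FOXM1 on the opposite strand and was not called (−0.04, adjusted p = 0.662).

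Ordered by level per length, the siCtrl means were 40.2 ± 1.25 RPKM (SD, n = 3) for MYBL2, 7.37 ± 0.0593 for FOXM1, 3.20 ± 0.303 for LIN37, 2.87 ± 0.226 for RBL2, 1.65 ± 0.208 for RBL1, 1.14 ± 0.122 for LIN52, 1.09 ± 0.155 for RB1, 0.868 ± 0.0948 for LIN54, 0.826 ± 0.0382 for LIN9 and 0.634 ± 0.0484 for MYBL1. The libraries of LIN37 and RBL2 overlapped, as did those of each neighbouring pair from LIN52 down to LIN9, so these places in the order are not resolved. After knockdown LIN37, at 4.63 ± 0.208 RPKM, stood clear of RBL2 at 2.06 ± 0.234. Reads of the genes that share exons with LIN37 may count in its level, so its place is uncertain in both groups. RBL1 was above LIN52 and RB1 in every siCtrl library, whereas in siBAP18 its range of 0.734 to 0.962 RPKM lay just below that of LIN52 and across that of RB1. MYBL2 and FOXM1 kept the top places in all 6 libraries.

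**Figure D4:**
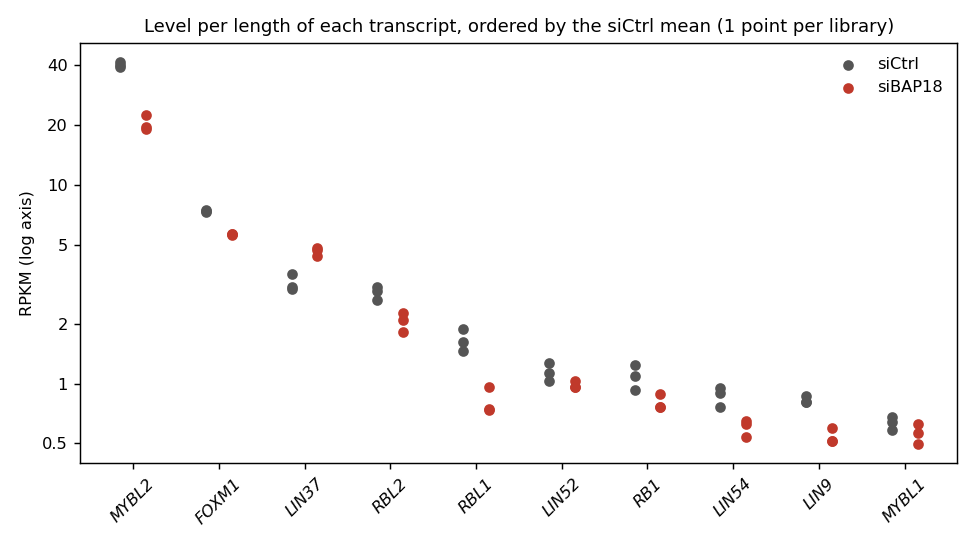
Level of each transcript in RPKM on a log axis, with 1 point per library, grey for siCtrl and red for siBAP18, ordered by the siCtrl mean. MYBL2 (39.0 to 41.5 RPKM in siCtrl, 19.1 to 22.3 in siBAP18) stands above all others in both groups.

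The other genes of the pathway were counted in 5 lists, beside the same 25.1% and 24.5% of all genes. Of 11 binding partners (RBBP4, the E2F factors and their DP subunits), 7 fell and 1 rose, with a median log2 fold change of −0.32. E2F2 (−1.71, adjusted p = 5.16e-09), E2F8 (−1.36, adjusted p = 3.03e-06) and E2F1 (−1.08, adjusted p = 5.89e-08) fell most, and RBBP4, the histone-binding MuvB subunit, fell by 0.41 (adjusted p = 2.84e-05). E2F6, a repressor that works apart from pocket proteins, rose by 0.31 (adjusted p = 0.00250).

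The list of kinases, cyclins, inhibitors and phosphatases that set the phosphorylation of pocket proteins and LIN52 went both ways, with 8 of 22 tested genes lower, 8 higher and a median of 0.0166, and 3 more (CCND2, CDKN2A and CDKN2B) did not pass the filter. CDKN1A, which encodes the inhibitor p21, rose by 1.74 (adjusted p = 4.14e-16) and CDKN1B, which encodes p27, by 0.35 (adjusted p = 0.000125). LATS2, a kinase that acts on DYRK1A, rose by 0.76 (adjusted p = 5.62e-08), and PPP2R2A, a regulatory subunit of the phosphatase PP2A, by 0.41 (adjusted p = 1.38e-05). Among the genes that phosphorylate pocket proteins, CCND3 (−1.03, adjusted p = 1.65e-11), CDK2 (−0.88, adjusted p = 2.20e-10), CCND1 (−0.80, adjusted p = 7.45e-10) and CCNE2 (−1.32, adjusted p = 1.77e-07) fell. CDK4, the main kinase partner of D-type cyclins, instead rose by 0.35 (adjusted p = 0.000206), and its paralog CDK6 was not called (−0.07, adjusted p = 0.614). Of the PP1 catalytic subunits, phosphatases that act on RB1, PPP1CC fell by 0.65 (adjusted p = 1.96e-07) and PPP1CB by 0.23 (adjusted p = 0.00623), and PPP1CA was not called (0.14, adjusted p = 0.140).

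The 16 cofactors of the RB family were mixed as well, with 6 lower, 5 higher and a median of −0.14. RBBP8, the DNA end resection factor CtIP, fell by 0.97 (adjusted p = 1.03e-10), and of the paralogous corepressor scaffolds SIN3A fell by 0.49 (adjusted p = 1.78e-06) while SIN3B, the one tied to DREAM, rose by 0.50 (adjusted p = 6.02e-06). MDM2, a ubiquitin ligase of p53 that also binds RB1, rose by 1.09 (adjusted p = 1.54e-11), and HDAC1, a histone deacetylase, by 0.31 (adjusted p = 0.000414).

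Most of the genes listed as targets of these complexes were lower after knockdown. Both target lists were chosen with earlier results of these data known, so their counts are a description. All 40 G1/S genes fell, with a median log2 fold change of −0.96, and 19 of them passed the fold change limit of 1. CLSPN (−2.03), a mediator of the replication checkpoint, GINS1 (−1.84) of the replicative helicase, UHRF1 (−1.64), which maintains DNA methylation, and CDC6 (−1.31), which licenses origins, had the smallest adjusted p in the list, from 2.42e-15 for GINS1 to 1.27e-13 for CDC6. E2F1 belongs to this list and to the partners, and CCNE1 and CCNE2 to this list and to the kinases and cyclins.

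Of 46 G2/M genes, 34 fell and 1 rose, with a median of −0.73. KIF11 (−1.46), a spindle motor, ANLN (−1.41) of the cytokinetic ring, TOP2A (−1.31), which untangles chromosomes, and ASPM (−1.34) of the spindle poles led by adjusted p, from 1.75e-14 for KIF11 to 4.76e-13 for ASPM. The 11 genes not called were CCNB2, CDC25B, PLK1, AURKB, BIRC5, CDC20, CENPA, UBE2C, PTTG1, CKS2 and TACC3, several of them textbook targets of MYBL2, MuvB and FOXM1. CDC25C, a phosphatase that activates CDK1, rose by 0.26 (adjusted p = 0.0189), a call lost without siCtrl replicate 2, siCtrl replicate 3 or siBAP18 replicate 1.

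**Figure D5:**
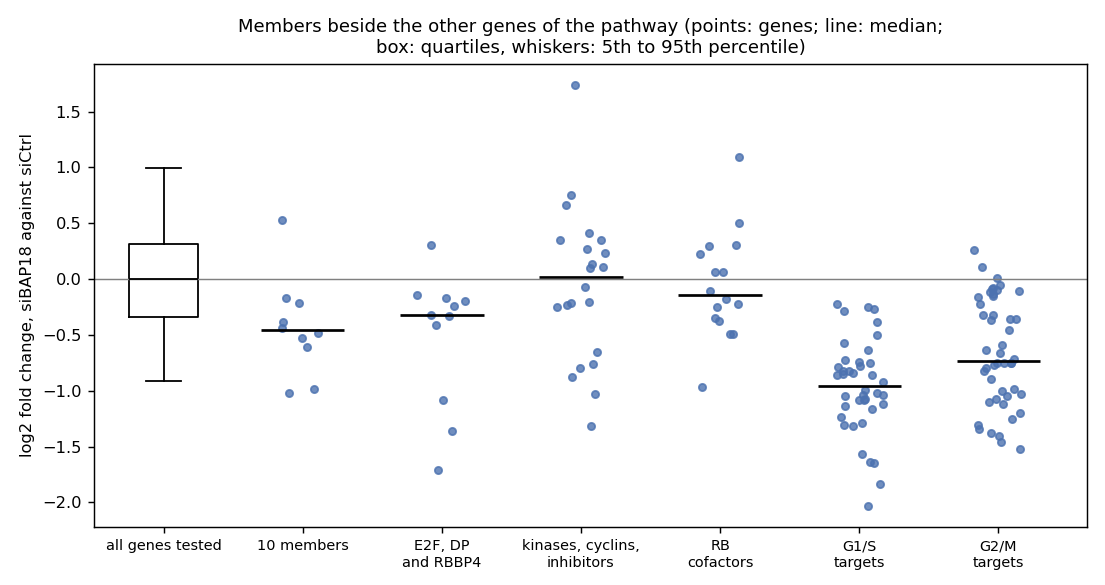
Log2 fold change of siBAP18 against siCtrl for each tested gene of the members and of the 5 lists, with the median as a line, beside a box of all 20776 genes (quartiles, with whiskers from the 5th to the 95th percentile). All 40 G1/S targets lie below 0, whereas the kinases, cyclins and inhibitors spread to both sides around a median of 0.0166.

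Over the 6 libraries, the transcripts whose log2 CPM followed each member most closely were named as a description, from the 14212 genes whose average log2 CPM reached 1. For MYBL2 these were MCM7 (Pearson r = 0.9996), a helicase subunit, and FDFT1 (0.9994), squalene synthase. FOXM1 was followed by AFAP1L1 (0.9997) and MCM5 (0.9993), and RBL1 by NRM (0.9989) and BBX (0.9983). For RBL2 they were FAM160B1 (0.9988) and NANP (0.9987), and for RB1 GSG2 (0.9948), the histone kinase haspin, and MGAM (0.9944). LIN9 was matched by TDP2 (0.9999) and ANO6 (0.9997), LIN54 by INCENP (0.9976) and CNTNAP1 (0.9899), LIN37 by HOXC13-AS (0.9961) among others, LIN52 by MRPS23 (0.9933) and AC005306.3 (0.9893), and MYBL1 by METTL15 (0.9868) and GPBP1 (0.9745). The 6 points fall into the 2 groups, so genes that differ between groups in the same direction tend to correlate. From 51 genes for MYBL1 to 3232 for LIN9 reached an r over 0.9.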

How the data were processed

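Poly(A) RNA of 6 A549 cultures, 3 per group, was sequenced from libraries that the labels describe as strand-specific. The authors deposited raw read counts per gene and RPKM values, with exon positions. The submitters' processing notes list hg38 and GRCm38. The aligner, the counting program and the use of strand are not given in the sources used here. RPKM values matched the deposited counts divided by exon length and library total. Counts were compared in R 4.3.3 with edgeR 4.0.16 (filterByExpr, TMM, robust quasi-likelihood test, Benjamini-Hochberg adjustment over all 20776 genes tested), and 3 within-library ratios of RPKM with an exact permutation test. Standard errors are of the log2 fold change, computed as its absolute value divided by the square root of the quasi-likelihood F statistic. The procedure was tested on simulated data drawn with the same dispersion in both groups. In the real counts, pairs of siBAP18 libraries differed more (chi-square per degree of freedom 11 to 25.8) than pairs of siCtrl libraries (4.17 to 4.87). p-values set the difference between groups against the spread between these cultures.

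The 10 members and the 5 gene lists were chosen with earlier results of these data known. Named genes are the members, C17orf49, genes that share exons with a member, up to 4 called genes with the smallest adjusted p in each direction of a list, and the 2 genes most correlated with each member over libraries, of which 1 is not reported here. Genes named beyond this, which are those not called or not tested in a list, those in 2 lists, CDK4, PPP1CB and PPP1CC, were chosen after their values were seen. Alternatives used limma 3.58.1, DESeq2 1.42.0, other scalings and filters, a replicate block and each library left out. Tables and plots used Python 3.11.15, pandas 2.3.3, numpy 2.4.6, scipy 1.17.1 and matplotlib 3.10.9.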

Additional observations from a re-analysis of the deposited data

How the results depend on the processing

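Replicate numbers did not pair the libraries (Pearson r of residuals across genes −0.0166, 0.0506 and 0.00379). With a replicate block, 7 members were called lower and 1 higher, RBL1 gave −1.03 and MYBL2 −0.99, and no member changed its call. With each library left out, 7 members stayed lower and 1 higher in number, and the G2/M genes called higher ranged from 0 to 1. Adding the limit of 1 on the absolute log2 fold change left 1 member lower and 0 higher, 3 partners lower and 0 higher, 2 kinases and cyclins lower and 1 higher, 19 G1/S genes lower, 14 G2/M genes lower and 0 higher, 0 RB cofactors lower and 1 higher, and 777 of all genes lower and 978 higher. Under limma on log2(RPKM + 1) without a filter, RB1 (−0.21, adjusted p = 0.0993) and LIN54 (−0.22, adjusted p = 0.0517) lost their calls, and 0 partners and 0 G2/M genes were called higher. With the filter of a mean RPKM of at least 0.5 the same scale gave the same fold changes and kept both calls (adjusted p = 0.0452 for RB1 and 0.0244 for LIN54). None of the results computed under another setting reversed direction, and no other member gained or lost its call. At this depth the member with the fewest counts was LIN9, with 96 to 192 per library, and for MYBL1, with 151 to 244, the difference of −0.17 was not detectable against a standard error of 0.128.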

Other observations

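Messenger RNAs can also carry short complements of an siRNA guide, so the 3′ UTRs (GENCODE 29, at least 50 bases) of 9 of the 10 members were searched for the 7-base word complementary to guide bases 2 to 8 of each siRNA the paper lists, a description chosen with earlier results known. The word for siBAP18#1 was found in RBL1 and in no other of the 9, beside 15.2% of 13616 genes searched. The words for siBAP18#2 (12.2% of genes) and siBAP18#3 (7.56%) were in 0 of the 9, and the word for siCtrl (3.30%) was in MYBL2. LIN37 had no 3′ UTR of that length in the annotation used and was not searched. Over the 13616 genes, the median log2 fold change with the word was −0.136 for siBAP18#1, −0.134 for siBAP18#2 and −0.254 for siBAP18#3. Without the word it was 0.00649, 0.00254 and 0.00363. For the siCtrl word the medians were 0.00834 with and −0.0151 without. UTR length was not matched in these medians. Which of these siRNAs the sequenced cultures received is not given in the sources used here, and the part of such words in the values of RBL1 and MYBL2 was not tested.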
